A study of Mus musculus with 2 samples.

Results

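A set of 8 genes whose mRNAs carry N6-methyladenosine (m6A) was followed across the cell classes of the mouse retina at postnatal day 7. The set consists of Zfp292, Bcl7a, Nxt1, Apex1, Ckap4, Traf4, Rap2b and Sulf2. The study had selected them as m6A-tagged genes that were raised in mutant retinal progenitor cell (RPC) and Müller glia clusters of these libraries, and placed several tags of each near the stop codon. They are 8 of the 30905 genes in the count matrices, and all 8 were found in both. Their levels in RPC-like and Müller-like cells are therefore a description of how they were chosen, and values in the other classes come from the same 2 libraries and are not independent of that choice either.

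Single-cell RNA sequencing was performed on 1 control library and 1 Mettl3-CKO library, each from 2 pooled retinas of the same litter, so no group had a replicate. Mettl3-CKO retinas carried floxed Mettl3 alleles and Six3-Cre, a transgene that turns Cre on in RPCs from an early embryonic stage, and per the study the knockout was efficient in the central retina. The control retinas came from littermates, and whether they carried Cre was not given in the sources used here. Of the control library 3994 cells were analysed, at a median of 4520.5 UMIs, and of the Mettl3-CKO library 3109 cells, at a median of 5207 UMIs.

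Mettl3 encodes the catalytic subunit of the nuclear complex that writes m6A on mRNA. The mark is placed at short motifs around GGAC, mostly in long exons and close to stop codons, and YTH-domain proteins that bind it are known to hasten the decay of the marked transcript. RPCs give rise to rods, cones, bipolar, amacrine and Müller cells through short-lived neurogenic and precursor states, whereas microglia enter the retina from outside and do not descend from RPCs.

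The genes have little in common in function. Zfp292 encodes a large zinc-finger protein, and Bcl7a a subunit of the SWI/SNF chromatin remodelling complex. Nxt1 encodes the partner of Nxf1 in mRNA export from the nucleus, and Apex1 the endonuclease that cuts abasic sites in base excision repair. Ckap4 encodes a membrane protein of endoplasmic reticulum sheets, Traf4 a signalling adaptor of the TNF receptor-associated factor family, Rap2b a small GTPase of the Ras family, and Sulf2 an enzyme that removes 6-O-sulfate groups from heparan sulfate outside the cell.

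Each transcript held the motif GGACT, a common form of the m6A motif, within 250 nucleotides of its stop codon. The windows below show the occurrence nearest to the stop codon with 8 bases on each side, on the strand of the transcript and with the motif in capitals. They are shown because the study placed the tags near the stop codon, and they were read from the GRCm38 genome with the GENCODE M21 annotation.
Zfp292: tccagataGGACTgttttaaa
Ckap4: aatgctcaGGACTgccgtgga
Nxt1: cggttccaGGACTgggccagc
Apex1: cactttctGGACTtacatgat
Bcl7a: cacttgacGGACTctgccgtg
Traf4: gggaggcgGGACTggatctga
Rap2b: aacaaggtGGACTtggagggt
Sulf2: cagcgcctGGACTttccgatg

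In all 8 genes the window lay in the last exon. It lay in the coding region in 5 of them. In Zfp292 (ENSMUSG00000039967) the motif stood 53 nucleotides before the stop codon, in a window at chr4:34805004-34805024 on the minus strand. In Ckap4 (ENSMUSG00000046841) it stood 146 before, at chr10:84527606-84527626 on the minus strand. In Nxt1 (ENSMUSG00000036992) it stood 13 before, at chr2:148675740-148675760 on the plus strand. In Apex1 (ENSMUSG00000035960) it stood 155 before, at chr14:50926808-50926828 on the plus strand, and in Rap2b (ENSMUSG00000036894) 196 before, at chr3:61365402-61365422 on the plus strand. The windows of the remaining genes were in the 3′ UTR. In Bcl7a (ENSMUSG00000029438) the motif stood 186 nucleotides after the stop codon, at chr5:123371265-123371285 on the plus strand. In Traf4 (ENSMUSG00000017386) it stood 38 after, at chr11:78159868-78159888 on the minus strand, and in Sulf2 (ENSMUSG00000006800) 162 after, at chr2:166074616-166074636 on the minus strand. A letter match is not a methylated site, and 45.2% of the 8695 genes with at least 500 UMIs and a coding transcript held GGACT in the same window.

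The transcripts were otherwise unlike each other. The longest exon was the last one in 8 of 8 genes, against 87.3% of the 8695. Its length ran from 684 nucleotides in Apex1 to 8931 in Zfp292, where it holds most of the coding region, and Rap2b consists of a single exon of 6793 nucleotides. It was above the median of 1418 nucleotides in 5 of the 8. The whole transcript held between 2 (Bcl7a) and 9 (Rap2b) GGACT motifs, and the number per kilobase was above the median of 1.03 in 6 genes. Apex1, Bcl7a, Rap2b and Sulf2 each overlap an annotated gene of the files on the other strand, of which Tmem55b, beside Apex1, had the most UMIs, 2504. The sources used here do not say if counting was by strand, and UMIs of these partners could be included.

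Cells were grouped into 20 clusters without using the 8 genes, and 15 clusters were named from marker genes, giving 9 classes. Their names end in "-like" because they rest on marker lists alone. Control and Mettl3-CKO cells numbered 213 and 350 in the RPC-like class, 261 and 186 in the Müller-like class and 272 and 315 in the neurogenic-like class. There were 632 and 521 rod/bipolar precursor-like cells, 1222 and 732 rod-like cells, and 98 and 107 cone-like cells. Bipolar-like cells numbered 261 and 167, amacrine-like cells 74 and 67, and microglia-like cells 34 and 31. The bipolar-like cluster rested on 4 of its 11 markers and was led by Cntnap5a and Isl1. The remaining 927 and 633 cells stayed unnamed.

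The libraries differed beyond the genotype. An Xist UMI was seen in 30 control and 1751 Mettl3-CKO cells, and a UMI of a Y-linked gene without Xist in 2512 and 725, so the control library was almost wholly from XY cells and the Mettl3-CKO library mixed XX and XY cells. Mettl3 itself was at a ratio of 0.837 (95% interval 0.754 to 0.928) over all cells and was not absent. The counts came from 3′ libraries of whole retinas, and whether they include transcripts of the deleted allele was not tested. They are therefore not given as a measure of the knockout, which the study saw by METTL3 staining in central retinas. The libraries shared 11 barcodes, 5 of them among the analysed cells. All intervals cover counting error only and say nothing of the spread between animals.

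Levels are given as CPM, the UMIs of a gene per 1000000 UMIs of the class, and are not compared between genes. In control cells Bcl7a was highest in rod/bipolar precursor-like cells at 384 CPM (363 to 406) and in neurogenic-like cells at 345 CPM (321 to 371), whose intervals overlapped, and 99.1 CPM (79.0 to 123) in cone-like cells. Zfp292 had the same leading class, at 323 CPM (304 to 343), followed by bipolar-like cells at 285 CPM (261 to 311). From there down to cone-like cells at 169 CPM (142 to 199) each interval overlapped the next, and microglia-like cells were lower at 51.6 CPM (25.8 to 92.4).

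Nxt1 stood at 151 CPM (133 to 170) in RPC-like cells, above every other class, which lay between 18.9 CPM in cone-like and 43.5 CPM in bipolar-like cells with overlapping neighbours. Within RPC-like cells it was at 173 CPM in the cluster led by Top2a and Cenpf, genes of mitosis, at 108 CPM in the cluster led by Mcm6 and Mcm3, genes of DNA replication, and at 135 CPM on 17 UMIs in the remaining cluster, of shallow cells with a median of 1244 UMIs. Ckap4 was highest in Müller-like cells at 241 CPM (222 to 261) and RPC-like cells at 214 CPM (194 to 237), with overlapping intervals, and stood at 60.2 CPM (44.8 to 79.1) in cone-like cells. Apex1 was at 200.2 CPM in amacrine-like and 196 CPM in neurogenic-like cells and at 46.1 CPM in rod-like cells.

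Sulf2 was the most restricted. Amacrine-like cells held it at 126 CPM (98.4 to 159), RPC-like cells at 52.1 CPM (42.0 to 63.8), rod-like cells at 1.25 CPM, and no UMI was found in control cone-like cells, where 3 UMIs would be 3.54 CPM. Traf4 was also highest in amacrine-like cells, at 126 CPM (98.4 to 159), next to bipolar-like cells at 103 CPM (88.8 to 119), and lowest among the retinal neurons in rod-like cells at 9.14 CPM. Rap2b was low throughout, from 6.02 CPM in rod-like to 42.6 CPM in Müller-like cells, and at 61.0 CPM in microglia-like cells on 13 UMIs.

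**Figure D1:**
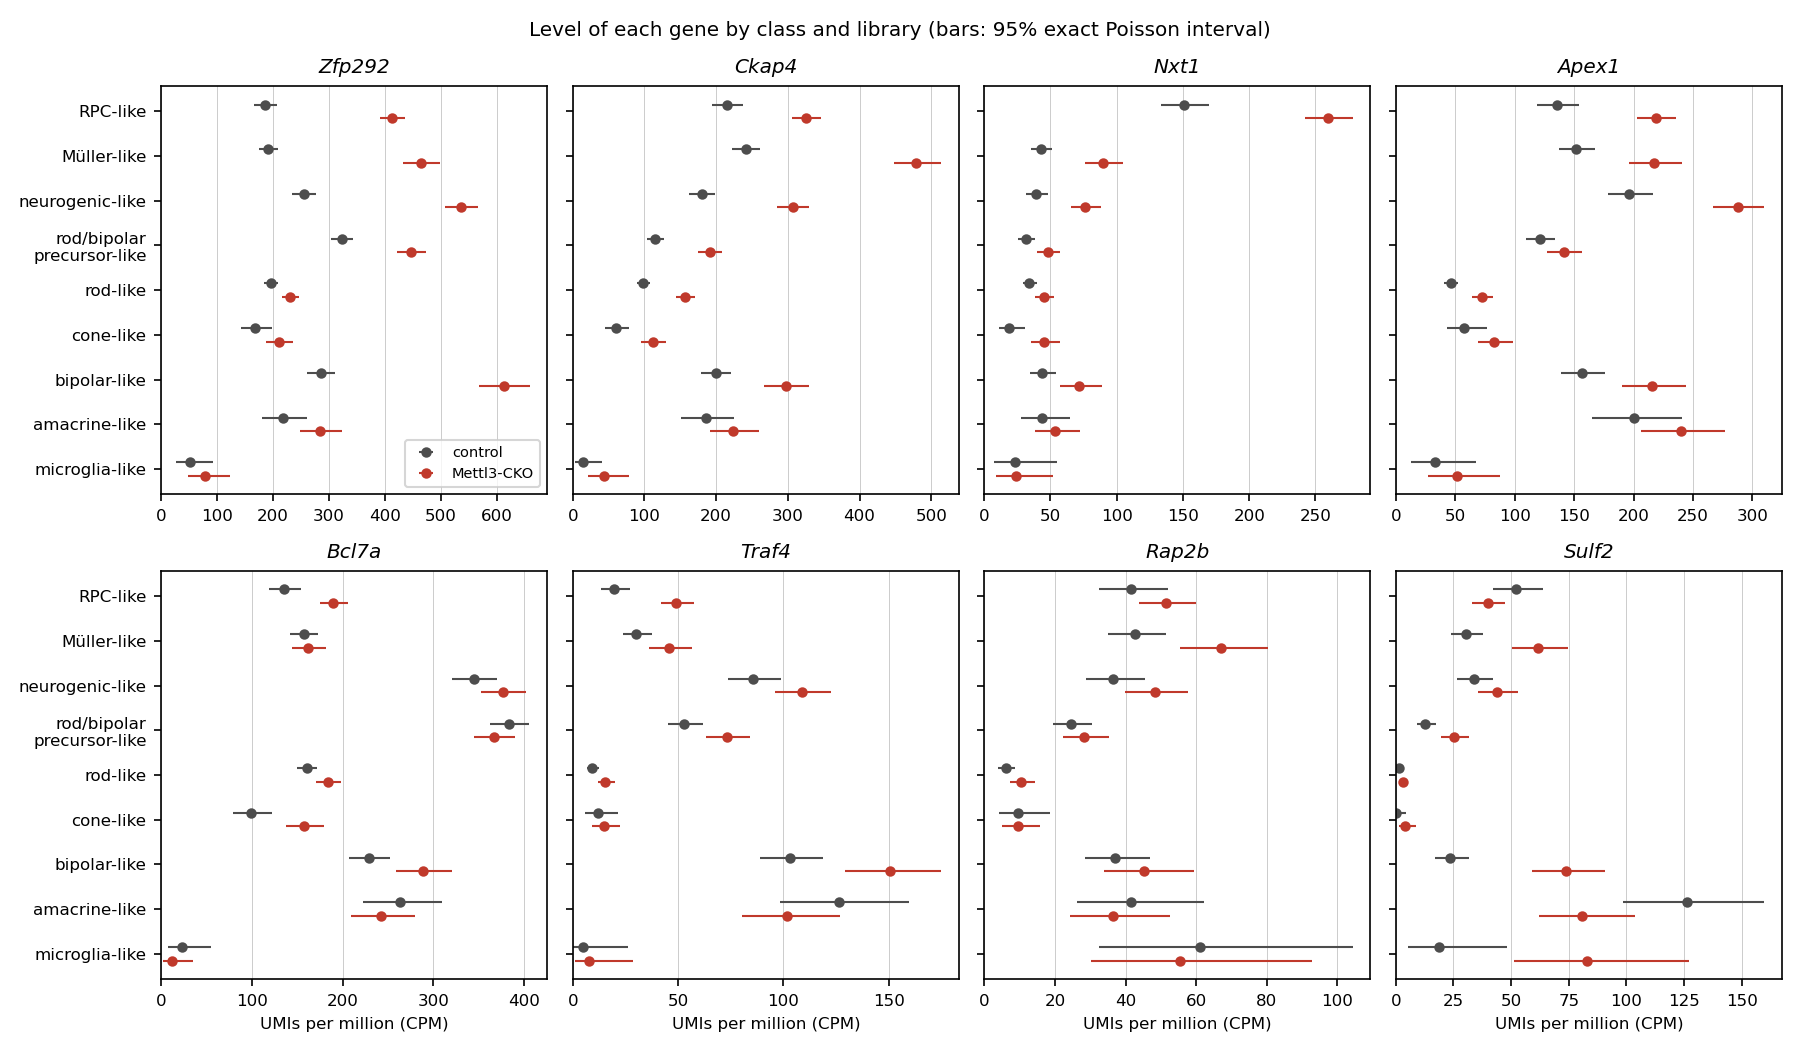
Level of each of the 8 genes in CPM (horizontal axis, a scale of its own for each gene) in the 9 classes, for the control library (grey) and the Mettl3-CKO library (red). Points are sums over the cells of a class and bars are 95% exact Poisson intervals. Nxt1 peaks in RPC-like cells and Sulf2 and Traf4 in control amacrine-like cells, and in most panels the red point lies to the right of the grey one except in the amacrine-like row.

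RPC-like and Müller-like cells are the classes in which the study had chosen the genes, and their values are given without further reading. In RPC-like cells 5 of 8 genes were at least 1.5-fold higher in the Mettl3-CKO library, beside 9.89% of the genes with at least 30 UMIs in that class, and 6 had an interval above 1, beside 11.7%. In Müller-like cells 6 of 8 passed 1.5-fold, beside 11.2%, and 7 had an interval above 1, beside 14.6%. Zfp292 was at 186 CPM in control and 414 CPM in Mettl3-CKO RPC-like cells, on 332 and 1296 UMIs, and at 192 and 465 CPM in Müller-like cells, on 486 and 806 UMIs. Sulf2 was at 52.1 and 39.9 CPM in RPC-like cells, lower in the Mettl3-CKO library, and at 30.4 and 61.7 CPM in Müller-like cells, higher in it. Bcl7a was nearly level in Müller-like cells, at 157 and 162 CPM. Rod markers were at 276 CPM in control and 494 CPM in Mettl3-CKO RPC-like cells and at 605 and 1150.4 CPM in Müller-like cells, with 10 of 11 markers higher in both, and their part in these levels was not tested.

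In neurogenic-like cells all 8 genes were higher in the Mettl3-CKO library, against 54.1% of genes. Of them 3 were at least 1.5-fold higher against 8.02% of genes, and 5 had an interval above 1 against 10.5% of genes. The median log2 ratio of the 8 was 0.48, beside 0.03 for all genes tested. Zfp292 was at 255 CPM (235 to 277, 560 UMIs) in control and 537 CPM (508 to 567, 1302 UMIs) in Mettl3-CKO cells, a log2 ratio of 1.07 (0.93 to 1.22). For Nxt1 the levels were 39.2 and 76.3 CPM, a log2 ratio of 0.96 (0.58 to 1.35), and for Ckap4 they were 180 and 307 CPM, with 0.77 (0.60 to 0.95). Bcl7a, at 345 and 376 CPM, had overlapping intervals, and those of the ratios of Rap2b and Sulf2 included 1.

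The 2 neurogenic-like clusters differed in the ratio of the summed level. In the cluster led by Neurog2, Miat and Dll1 the summed level of the 8 genes was 1107 CPM in control and 1942 CPM in Mettl3-CKO cells, a ratio of 1.75 (1.62 to 1.89). In the cluster led by Mybl1, Olig2 and Atoh7, which also had Neurog2 among its leading genes, it was 1217 and 1673 CPM. That is a ratio of 1.37 (1.29 to 1.47), and the intervals of these ratios did not overlap. Zfp292 differed in both, with log2 ratios of 1.28 (1.05 to 1.51) and 0.93 (0.75 to 1.12). Nxt1 stood at 1.47 (0.86 to 2.12) in the first and 0.58 (0.09 to 1.09) in the second, Ckap4 at 1.03 (0.77 to 1.30) and 0.53 (0.28 to 0.78), and Bcl7a at 0.36 (0.12 to 0.61) and 0.00 (-0.17 to 0.18). For each of these single genes, Zfp292 included, the intervals of the 2 clusters overlapped.

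**Figure D2:**
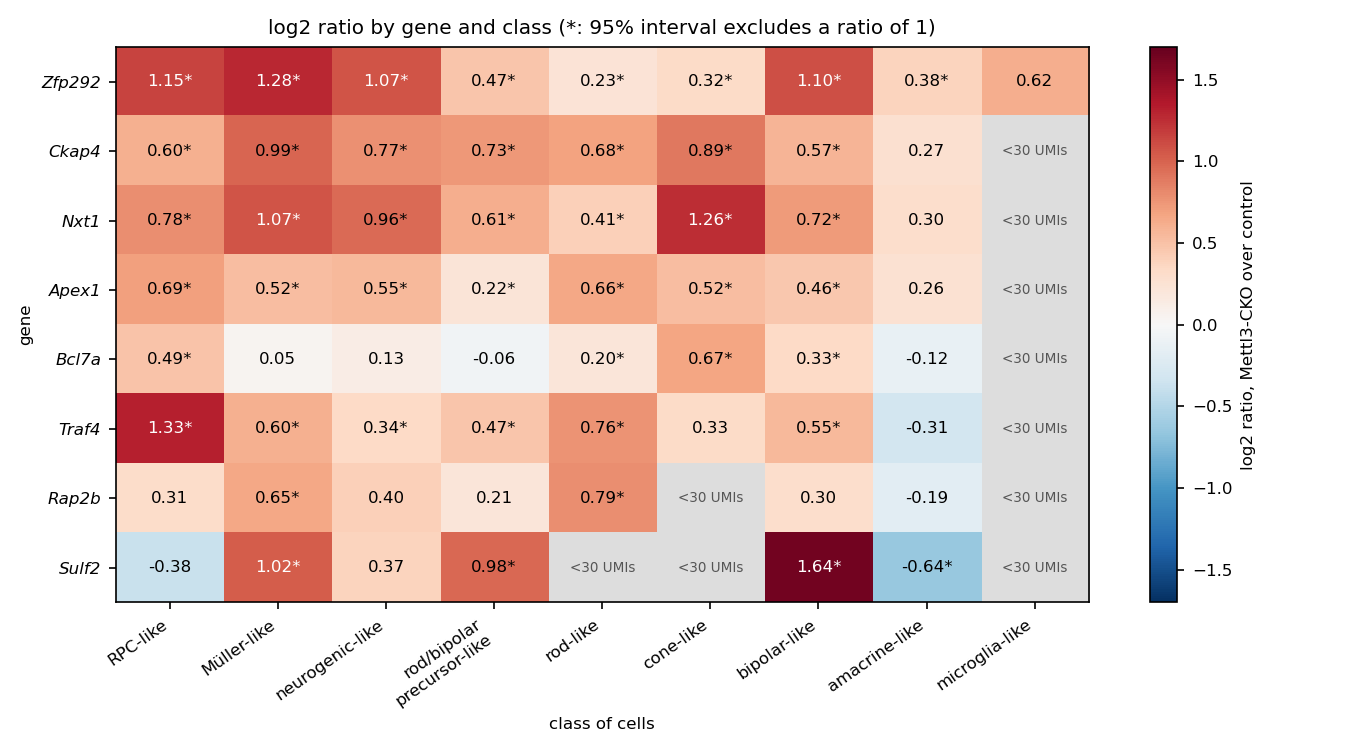
log2 ratio of Mettl3-CKO over control for each gene (rows) and class (columns), printed in each field and coloured from blue (lower) to red (higher). A star marks a 95% interval that excludes a ratio of 1 and grey fields held under 30 UMIs. Zfp292 is at 1.07 or more in RPC-like, Müller-like, neurogenic-like and bipolar-like cells and at 0.23 to 0.62 elsewhere, and the amacrine-like column has a single star above 0 and a single one below.

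Bipolar-like cells showed all 8 genes higher, against 45.1% of genes. Of them 3 were at least 1.5-fold higher against 8.62% of genes, and 7 had an interval above 1 against 9.88%. Zfp292 was at 285 CPM in control and 613 CPM in Mettl3-CKO cells, a log2 ratio of 1.10 (0.94 to 1.27). Sulf2 was at 23.7 CPM (43 UMIs) and 73.6 CPM (86 UMIs), a log2 ratio of 1.64 (1.09 to 2.20). The median of the 8 was 0.56, beside -0.05 for all genes. These values depended on how the cells were delimited. At a finer clustering the log2 ratio of Zfp292 was 0.45 and that of Sulf2 1.08, and where each cell was named by its own markers Zfp292 was at 0.36 and Rap2b at -0.74. Erythrocyte markers stood at 16.5 CPM in control and 750 CPM in Mettl3-CKO bipolar-like cells, and their part in these values was not tested.

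Rod/bipolar precursor-like cells had smaller differences. There 7 of 8 genes were higher, against 48.7% of genes. Of them 3 were at least 1.5-fold higher against 4.48% of genes, and 6 had an interval above 1 against 7.18%. Ckap4 was at 115 CPM (104 to 127) in control and 191 CPM (175 to 209) in Mettl3-CKO cells, Zfp292 at 323 and 447 CPM, and Sulf2 at 12.7 and 25.0 CPM. Bcl7a, which had its highest control level in this class, was at 384 CPM (363 to 406) and 367 CPM (345 to 391), with overlapping intervals. The median log2 ratio was 0.47, and 0.14 where Mettl3-CKO cells were limited to those with a Y-linked UMI and no Xist.

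Rod-like cells, the largest class, held 7 of the 8 genes at 30 UMIs or more. All 7 were higher in Mettl3-CKO cells with an interval above 1, against 10.3% of genes, and 4 were at least 1.5-fold higher against 4.46%. The latter count depended on the weighting and choice of cells. With every cell weighted alike 1 of the 7 passed 1.5-fold, against 5.98% of genes. With Mettl3-CKO cells limited to those with Xist it was also 1, against 5.74%. The order of the genes was not that of the progenitor classes. Zfp292 was at 196 CPM (184 to 209, 944 UMIs) in control and 231 CPM (215 to 247, 863 UMIs) in Mettl3-CKO cells, a log2 ratio of 0.23 (0.10 to 0.37). Ckap4 was at 98.0 and 157 CPM, a log2 ratio of 0.68 (0.50 to 0.86), and Apex1 at 46.1 and 72.7 CPM, with 0.66 (0.40 to 0.92). Traf4 and Rap2b were rare in rods, at 9.14 and 15.5 CPM and at 6.02 and 10.4 CPM. Sulf2 gave 6 and 11 UMIs and was not called. Erythrocyte markers were at 1718 CPM in control and 2.14 CPM in Mettl3-CKO rod-like cells, and their part in these values was not tested.

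Cone-like cells gave 6 genes with at least 30 UMIs, of which 3 were at least 1.5-fold higher against 10.2% of genes and 5 had an interval above 1 against 8.98%. Nxt1 was at 18.9 CPM on 16 UMIs in control and 45.1 CPM on 67 UMIs in Mettl3-CKO cells, a log2 ratio of 1.26 (0.45 to 2.14). Bcl7a, which was near level in Müller-like and neurogenic-like cells, was at 99.1 CPM (79.0 to 123) and 158 CPM (138 to 179), a log2 ratio of 0.67 (0.30 to 1.05). Zfp292 was at 169 and 211 CPM. The Mettl3-CKO cone-like cells were deeper, with a median of 12677 UMIs against 8298, and held more of the rod markers, 12317 against 9564 CPM. The part of these in the ratios was not tested.

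Amacrine-like cells were the retinal class in which the sums stood closest. The 8 genes together were at 1205 CPM in control and 1262 CPM in Mettl3-CKO cells, a ratio of 1.05 (0.95 to 1.16), and this interval did not overlap those of the other classes except microglia-like cells, which began at 1.18 or above. Of the 8 genes 0 were 1.5-fold higher, against 14.6% of all genes, and 4 were higher at all, against 55.5%. Zfp292 alone had an interval above 1, against 9.06% of genes, and Sulf2 alone one below 1, against 6.39%. Zfp292 was at 218 CPM (181 to 261) and 284 CPM (248 to 324). Sulf2 was at 126 CPM (98.4 to 159, 70 UMIs) in control and 80.8 CPM (61.9 to 104, 62 UMIs) in Mettl3-CKO cells, a log2 ratio of -0.64 (-1.16 to -0.13). Traf4 was at 126 and 102 CPM, with overlapping intervals.

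This near-equality rested on the weighting of cells. The deepest 6 of the 67 Mettl3-CKO amacrine-like cells held 32.8% of the class's UMIs, and the deepest of them had 77813, while the deepest 7 of the 74 control cells held 19.3%. Without these cells the median log2 ratio was 0.22 in place of 0.07. With every cell weighted alike it was 0.41, and 7 of the 8 genes were higher. Of these Ckap4, Nxt1 and Apex1 were at least 1.5-fold higher, with log2 ratios of 0.64, 1.06 and 0.65. That is 3 of the 8 genes, beside 18.7% of all genes under this weighting, a share that was 14.6% in the main values. The Mettl3-CKO amacrine-like cells also held more of the rod markers, 5397 against 2350 CPM with 11 of 11 markers higher, and less of the amacrine markers, 2447 against 3244 CPM with 1 of 10 higher. The part of these in the levels was not tested.

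Microglia-like cells, outside the lineage in which Six3-Cre acts, gave 49 control and 90 Mettl3-CKO UMIs of the 8 genes, 230.0 and 356 CPM, a ratio of 1.55 (1.08 to 2.24). Zfp292 alone reached 30 UMIs, with an interval of the ratio that included 1 against 8.91% of genes above it, at 51.6 CPM (25.8 to 92.4) and 79.1 CPM (48.3 to 122), with overlapping intervals, and 1.5-fold was passed by 11.3% of the genes tested in this class. Sulf2 accounted for much of the difference, with 4 UMIs in control and 21 in Mettl3-CKO cells. Rod markers in these cells were at 653 and 111 CPM. Free RNA from other cells can add UMIs in droplets, and its part here was not tested.

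**Figure D3:**
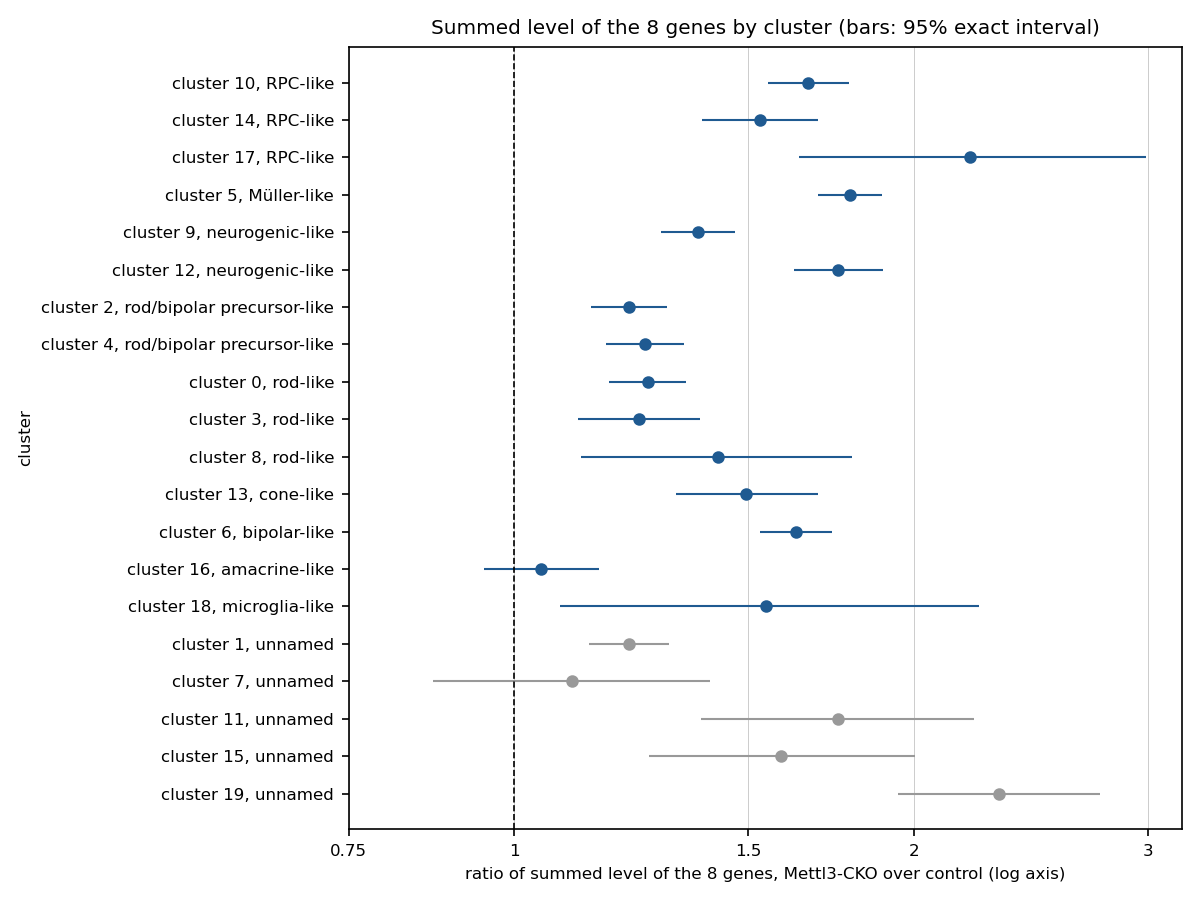
Ratio of the summed level of the 8 genes in Mettl3-CKO over control cells (horizontal log axis) for each of the 20 clusters, with 95% exact intervals. Blue points are clusters with a class name and grey points unnamed clusters. The ratio lies at 1.22 to 1.42 in the rod-like and rod/bipolar precursor-like clusters, above 1.5 in the RPC-like, Müller-like and bipolar-like clusters, and at 1.05 in the amacrine-like cluster.

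The summed ratio was 1.79 (1.69 to 1.89) in Müller-like and 1.66 (1.57 to 1.75) in RPC-like cells, the classes of the choice, which are not ranked against the others. Of the rest, bipolar-like cells at 1.63 (1.53 to 1.73) and neurogenic-like cells at 1.52 (1.45 to 1.60) had overlapping intervals. Cone-like cells at 1.49 (1.32 to 1.69) overlapped both of them and rod-like cells. Rod-like cells at 1.30 (1.24 to 1.38) and rod/bipolar precursor-like cells at 1.24 (1.18 to 1.30) lay below bipolar-like and neurogenic-like cells, with intervals that did not meet theirs. These intervals do not cover how the cells were delimited. At the finer clustering the bipolar-like name fell on 160 control and 61 Mettl3-CKO cells, in place of 261 and 167. The order of the summed ratios was not recomputed there.

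At a stricter limit of 2-fold fewer of the genes remained in most classes. There were 2 in bipolar-like cells beside 2.07% of all genes tested in that class, 1 in neurogenic-like cells beside 1.92% and 1 in cone-like cells beside 2.71%. None passed in rod-like and rod/bipolar precursor-like cells, beside 0.924% in each, in amacrine-like cells, beside 5.30%, or in microglia-like cells, beside 4.05%. In RPC-like and Müller-like cells 2 and 3 genes passed, beside 2.73% and 3.51%.

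By gene, the intervals of Ckap4 and Apex1 were above 1 in 7 of the 8 classes other than microglia-like cells, with log2 ratios of 0.57 to 0.99 for Ckap4 and 0.22 to 0.69 for Apex1 in those classes. Nxt1 was likewise above 1 in 7, from 0.41 in rod-like to 1.26 in cone-like cells, and Zfp292 in all 8, from 0.23 in rod-like to 1.28 in Müller-like cells. Traf4 was above 1 in 6 classes, Bcl7a and Sulf2 in 4 and 3, and Rap2b in 2, Müller-like and rod-like cells. Over all cells Nxt1 had the highest ratio, 2.01 (1.85 to 2.18), and Bcl7a the lowest, 1.10 (1.05 to 1.14). These ratios over all cells also contain the different make-up of the libraries.

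The mixed sex of the Mettl3-CKO library allowed a comparison within it. Cells with Xist and cells with a Y-linked UMI had summed ratios to each other of 0.968 (0.910 to 1.03) in RPC-like cells, of 1.03 (0.954 to 1.12) in Müller-like, 1.05 (0.975 to 1.14) in rod/bipolar precursor-like, 0.928 (0.845 to 1.02) in rod-like and 1.06 (0.961 to 1.17) in bipolar-like cells. In neurogenic-like cells the ratio was 1.12 (1.05 to 1.20), on 179 cells with Xist and 105 with a Y-linked UMI. Against control cells, the median log2 ratio of the 8 genes in cells with a Y-linked UMI and no Xist was 0.91 in Müller-like and 0.67 in RPC-like cells. It was 0.58 in bipolar-like and 0.53 in neurogenic-like cells, but 0.14 in rod/bipolar precursor-like cells. In rod-like cells the median over the 7 genes with at least 30 UMIs was 0.73.

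Relatives of the 8 genes were read in the same way. The list held 16 genes, paralogs such as Bcl7b, Bcl7c, Sulf1, Rap2a and the other Traf genes, together with Nxf1, the export factor that Nxt1 binds. In the 8 classes other than microglia-like cells between 7 and 14 of them had at least 30 UMIs, and their median log2 ratio lay between -0.09 and 0.11. At most 2 were 1.5-fold higher in any class, 2 of 10 in cone-like cells, beside 10.2% of all genes tested there. Sulf1, the sister enzyme of Sulf2, had a log2 ratio of -1.05 (-1.51 to -0.60) among RPC-like cells and of -0.45 (-0.75 to -0.16) among Müller-like cells. Nxf1 was slightly higher in rod-like cells, 0.20 (0.06 to 0.34), and in rod/bipolar precursor-like cells, 0.22 (0.06 to 0.38). Rap1a was lower in RPC-like, Müller-like and neurogenic-like cells, with -0.40 (-0.67 to -0.14), -0.52 (-0.85 to -0.19) and -0.67 (-0.99 to -0.36).

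The writers, readers and erasers of m6A, 15 genes, had median log2 ratios between -0.06 and 0.25 in those classes. In each class 1 to 5 of them had an interval above 1, beside 7.18% to 14.6% of all genes tested. The lowest count, 1 of 13 in amacrine-like cells, was near the share of 9.06% there. Rbm15, a subunit of the writer complex that brings it to its targets, was at 1.17 (0.89 to 1.46) in RPC-like, 1.28 (0.89 to 1.68) in Müller-like, 1.27 (0.78 to 1.77) in bipolar-like and 0.84 (0.49 to 1.20) in neurogenic-like cells. It was at 0.52 (0.18 to 0.86) in rod/bipolar precursor-like and 0.44 (0.13 to 0.75) in rod-like cells, and its interval included 1 in cone-like and amacrine-like cells. Ythdf2, a reader that recruits the decay machinery, was at 0.73 (0.49 to 0.98), 0.54 (0.30 to 0.78) and 0.64 (0.39 to 0.88) in RPC-like, Müller-like and bipolar-like cells. It was at 0.74 (0.29 to 1.21) in cone-like, 0.40 (0.19 to 0.62) in rod-like and 0.23 (0.03 to 0.42) in rod/bipolar precursor-like cells. Its interval included 1 in neurogenic-like and amacrine-like cells. Mettl3 was at -0.59 (-1.14 to -0.05) in RPC-like and -0.39 (-0.73 to -0.05) in rod-like cells. Its interval included 1 in the other classes, with log2 ratios of -0.17 in Müller-like, 0.09 in neurogenic-like, -0.04 in bipolar-like, -0.33 in rod/bipolar precursor-like, -0.53 in cone-like and -0.34 in amacrine-like cells. The limits given above for Mettl3 over all cells hold for these ratios too, and they are not a measure of the knockout.

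The level in single cells was examined after thinning each cell to 2000 UMIs. In neurogenic-like cells the 8 genes together gave 2.31 ± 1.57 UMIs per cell (SD over 257 control cells) and 3.53 ± 2.62 (307 Mettl3-CKO cells). Bipolar-like cells gave 2.21 ± 1.58 (210 cells) and 3.46 ± 2.51 (143 cells), and rod-like cells 1.07 ± 1.07 (1004 cells) and 1.36 ± 1.24 (680 cells). In amacrine-like cells, with shallow cells left out, the means were 2.36 ± 1.57 (56 cells) and 2.88 ± 1.81 (58 cells). The distributions overlapped widely in every class. The share of Mettl3-CKO cells above the 95th percentile of control cells was 26.3% (20.2 to 33.3) in Müller-like, 18.9% (12.8 to 26.3) in bipolar-like, 16.3% (12.3 to 20.9) in neurogenic-like, 14.2% (10.3 to 18.9) in RPC-like and 12.7% (6.96 to 20.8) in cone-like cells. It was 5.61% (3.73 to 8.06) in rod/bipolar precursor-like, 5.29% (3.74 to 7.25) in rod-like and 3.45% (0.420 to 11.9) in amacrine-like cells. The same limit was passed by 1.22% to 4.76% of control cells, and by 3.57% in amacrine-like cells. These shares changed with the depth. Thinned to 1000 UMIs, they were 9.12% in RPC-like, 10.8% in Müller-like, 6.09% in neurogenic-like, 12.7% in amacrine-like cells and 2 of 105 in cone-like cells, and the difference of means in cone-like cells was -0.02 UMIs. Without thinning, on CPM per cell, they ran from 11.8% in rod-like to 45.7% in Müller-like cells, with 38.3% in RPC-like cells. With predicted doublets left out the cone-like share was 6.06%.

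**Figure D4:**
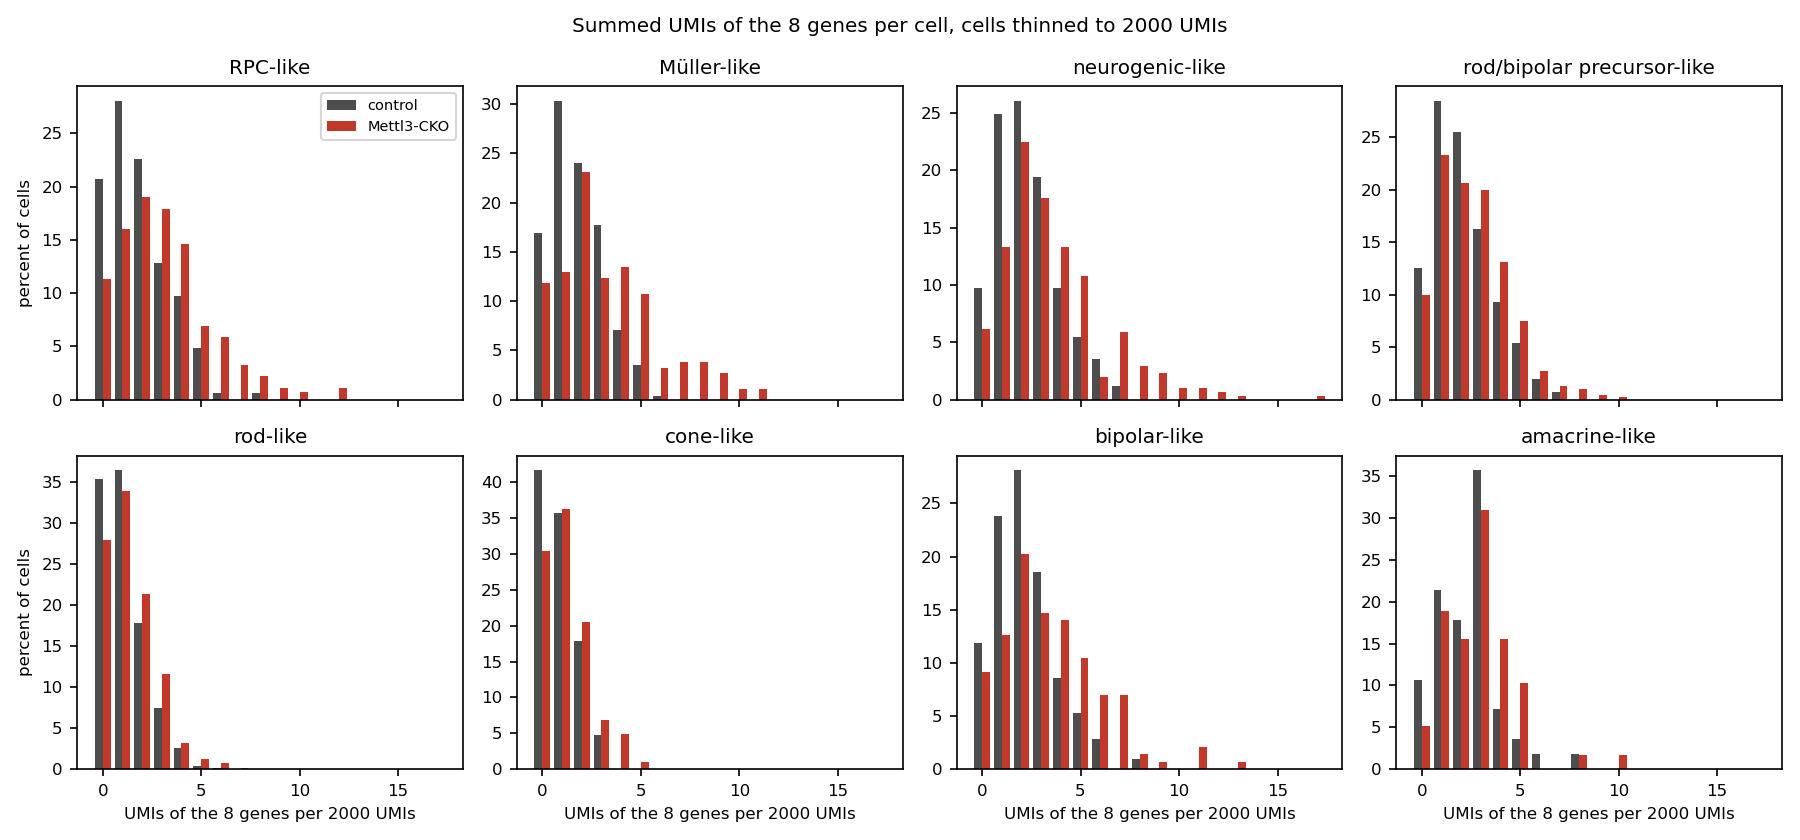
Share of cells (vertical axis, percent) by the summed UMIs of the 8 genes per cell after thinning every cell to 2000 UMIs (horizontal axis), for control (grey) and Mettl3-CKO (red) cells of 8 classes. Red bars lie past 8 UMIs in RPC-like, Müller-like, neurogenic-like, bipolar-like, rod/bipolar precursor-like and amacrine-like cells, in the last of these for 1 cell, and stay close to the grey ones in rod-like cells.

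The genes were also counted per cell at this depth, as the number of the 8 with at least 1 UMI. At least 4 of the 8 were seen in 5.45% (3.01 to 8.97) of control and 21.8% (17.3 to 26.9) of Mettl3-CKO neurogenic-like cells, and in 6.67% (3.69 to 10.9) and 20.3% (14.0 to 27.8) of bipolar-like cells. For RPC-like cells the shares were 4.88% and 17.2%, for Müller-like cells 4.72% and 16.1%, and for rod/bipolar precursor-like cells 3.14% (1.87 to 4.92) and 9.15% (6.73 to 12.1). In rod-like cells they were 0.498% (0.162 to 1.16) and 1.03% (0.415 to 2.11), with overlapping intervals. No class is known to lack all of these genes. At the same 2000 UMIs Sulf2 was seen in 0 of 84 control and 0 of 102 Mettl3-CKO cone-like cells and in 0.199% of control rod-like cells, and Traf4 likewise in 0 of the 84 control cone-like cells.

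A higher level of each gene raises such shares without any link between the genes. The variance of the number of genes seen per cell was therefore divided by the variance that independent detection at the same shares would give. In control cells this quotient lay between 0.858 and 1.11 in all 8 classes. In Mettl3-CKO cells it was 1.41 in RPC-like, 1.32 in Müller-like, 1.32 in bipolar-like and 1.25 in neurogenic-like cells, and between 0.945 and 1.11 in the other 4 classes. For the 16 relatives it lay between 0.888 and 1.14 in either library. The relatives were seen less often, in Mettl3-CKO RPC-like cells 1.45 of the 16 per cell against 2.10 of the 8 genes. The quotient also depends on how often genes are seen, so the lists are not compared on equal terms. The 8 genes had been chosen as raised in mutant RPC and Müller clusters of these libraries, and the relatives had not. Quotients above 1 are therefore not independent of that choice. A class that mixes cells of higher and lower levels also gives a quotient above 1, and the part of such a mix was not tested. At 1000 UMIs per cell the Mettl3-CKO quotient was 0.962 for the neurogenic-like class and 1.06 for the bipolar-like class. The control quotients at that depth were 1.06 and 1.12, so neither excess held there. The RPC-like quotient was then 1.17 for Mettl3-CKO against 0.994 for control cells. The Müller-like quotient was 1.24 against 0.967.

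**Figure D5:**
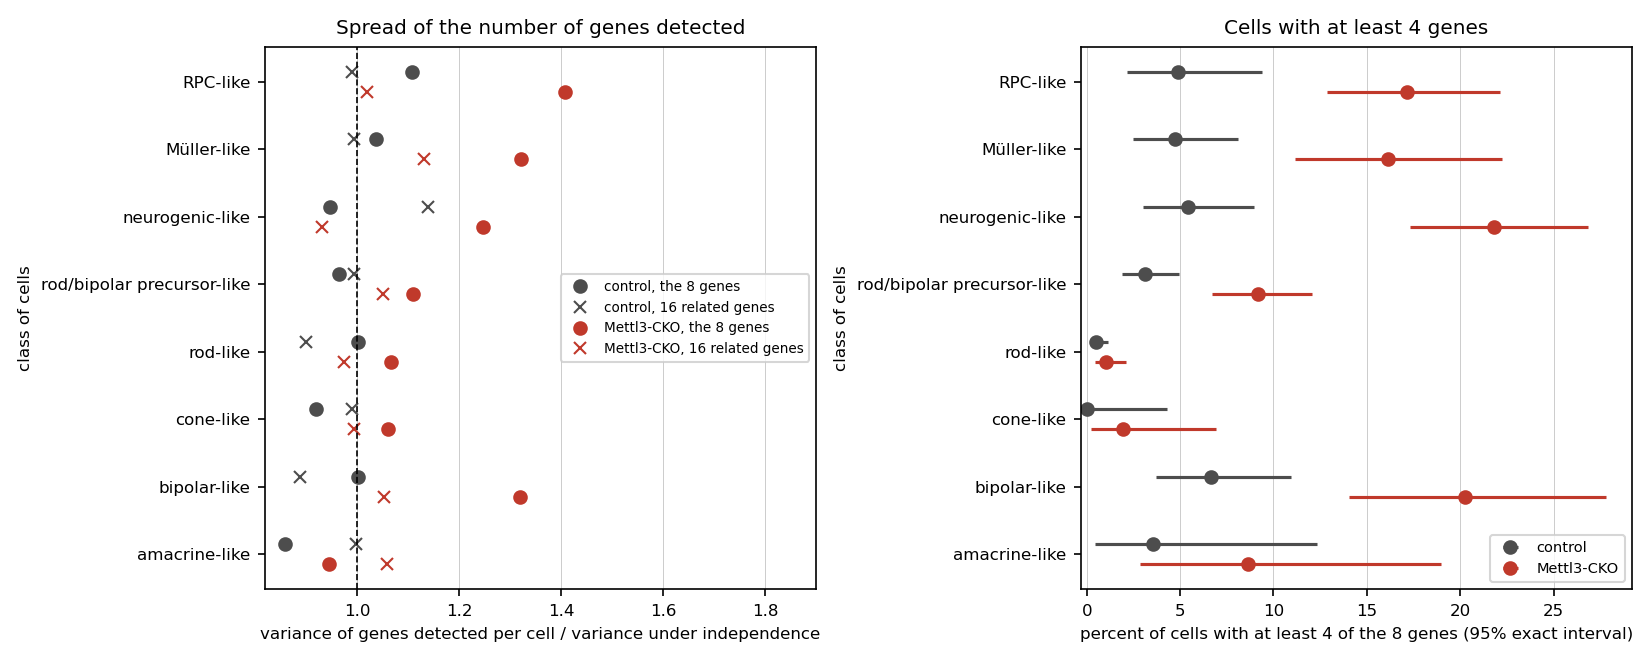
Left, variance of the number of genes seen per cell over that under independence (horizontal axis) for the 8 genes (dots) and 16 relatives (crosses) in control (grey) and Mettl3-CKO (red) cells of 8 classes. Right, percent of cells with at least 4 of the 8 genes and 95% exact intervals. The red dots of RPC-like, Müller-like, bipolar-like and neurogenic-like cells lie at 1.25 to 1.41, and the right panel shows 16.1% to 21.8% in the same classes.

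Pairs of genes were only weakly related from cell to cell. The median Spearman rho over pairs, given as a description of thinned counts, was at most 0.0748 in any Mettl3-CKO class and the highest single value was 0.258, for Zfp292 and Bcl7a in RPC-like cells, where 49 of 274 cells held both and independent shares would give 34.7. In control RPC-like cells that pair stood at 0.198. For Zfp292 and Ckap4 in Mettl3-CKO Müller-like cells rho was 0.228, with 63 of 186 cells holding both against 52.1.

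Across the 18 combinations of class and library, the genes whose log2 level ran most like the mean of the 8 were Ptrh2 (r = 0.974), Lrrc4b (0.947), RF01962 (0.946), Map1a (0.939), Chst10 (0.938) and Rhou (0.938), among 8564 genes compared. The points share libraries and depth. Of the 8 themselves, Apex1 ran closest to their mean, with r = 0.973, and Rap2b least, with 0.413.

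Other transcripts were grouped by the number of GGACT motifs they hold, leaving the 8 genes out and taking genes with at least 100 UMIs in a class. In Müller-like cells the median log2 ratio was -0.02 for 589 genes with 0 motifs, 0.01 for 4426 genes with 1 to 5 and 0.10 for 1358 genes with at least 6. In cone-like cells the medians were -0.06, 0.00 and 0.13, in rod-like cells -0.04, -0.00 and 0.06, and in RPC-like cells -0.02, 0.03 and 0.08. Neurogenic-like cells had -0.01, 0.00 and 0.05, and amacrine-like cells -0.03, -0.01 and 0.04. The first 2 groups did not rise in order in bipolar-like cells, at -0.07, -0.09 and 0.01, and rod/bipolar precursor-like cells were nearly level, at -0.02, -0.02 and 0.01. Microglia-like cells had the reverse order, 0.08, -0.00 and -0.09, on 131, 442 and 51 genes. The number of motifs moves with transcript length, whose medians in Müller-like cells were 1307, 2563 and 5807 nucleotides, and the parts of motif and length cannot be told apart in this comparison.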

How the data were processed

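The files are single-cell matrices of raw counts: per the labels and file headers, the authors made 10x Genomics 3′ libraries and used Cell Ranger 3.1.0 with GRCm38 to count unique molecular identifiers (UMIs) of each gene in each cell, and the deposited counts are not normalized. The submitters' processing notes also name Seurat 3.1. The matrices as read ended before the entries of their size lines, so 2001 of 5995 control and 3883 of 6992 Mettl3-CKO barcodes were not analysed here, and 237 and 86 analysed cells fell outside the study's stated filter of over 200 genes and under 20% mitochondrial UMIs but were kept. Mitochondrial UMIs (5.53% and 4.19%) were left out of totals. The analysed cells held 20955138 and 19957693 UMIs without them. One GEO sample formed each group, as its genotype label says.

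Counts were scaled to 10000 per cell, and 2000 variable genes, without the 8 genes, their relatives, the m6A machinery and sex-linked genes, gave 10 principal components and, with 20 neighbours, Leiden clusters at resolution 1 (Python 3.11.15 with scanpy 1.11.5, scipy 1.17.1, numpy 2.4.6, scikit-learn 1.9.0 and leidenalg 0.10.2). A class name needed at least 3 listed markers detected in 20% of the cluster and 1.5-fold above the rest, with details of the rule set after the clusters were seen. The automatic doublet threshold marked 0.0751% and 0.225% of cells and was not used. The highest 5% of doublet scores per library served as an alternative, and no cell was removed in the main values.

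UMIs were summed per class and library. Levels have exact Poisson, ratios exact conditional binomial and shares exact (Clopper-Pearson) intervals at 95%. With 1 library per group there was no test and no p-value. Genes with at least 30 UMIs in a class over both libraries entered counts. The interval and thinning steps were tested on simulated data. Transcript features used 1 protein-coding transcript per gene, the principal one by the annotation's tags, and 30766 of 30905 genes matched the annotation by ID. GGACT was searched on the transcript strand. Named genes were the 8, Mettl3, the relatives, the machinery, and the 6 genes most like the 8 in level (log2 of CPM + 5, at least 500 UMIs) and in ratio over the classes, without predicted, mitochondrial and sex-linked genes. The genes most like them in ratio are not reported here. Cluster-leading genes are named to say what a cluster is. The members, lists and markers were chosen with earlier results of these data known.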

Additional observations from a re-analysis of the deposited data

Results flagged for a closer look

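Sulf2 had a log2 ratio of -0.64 in amacrine-like cells with an interval below 1, opposite in direction to the 3 classes in which its interval was above 1 on at least 30 UMIs, Müller-like, rod/bipolar precursor-like and bipolar-like cells, and to microglia-like cells on 25 UMIs. The difference between classes was not tested, and the value was -0.24 with each cell weighted alike.

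Cells left without a class name also differed between the libraries in the summed level of the 8 genes. The ratio was 1.22 (1.14 to 1.31) in cluster 1, led by Pcp2 and Ccdc136, and 1.75 (1.38 to 2.22) in cluster 11, led by Crym and Rlbp1 with a median of 1490 UMIs. It was 1.59 (1.26 to 2.00) in cluster 15, which had a median of 842 UMIs, and 2.32 (1.94 to 2.76) in cluster 19, with 45 control and 16 Mettl3-CKO cells and Ttr, Crip1 and Rgs5 as leading genes. In cluster 19 Ckap4 was at 222 CPM in control and 595 CPM in Mettl3-CKO cells. Cluster 7, with a median of 779 UMIs, had a ratio of 1.10 (0.868 to 1.40).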

How the results depend on the processing

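The median log2 ratio of the genes stayed above 0 in the alternatives run, 11 per class but 10 in cone-like cells, in the RPC-like (0.52 to 0.72), Müller-like (0.74 to 0.91), neurogenic-like (0.42 to 0.66), rod-like (0.51 to 0.73), cone-like (0.50 to 0.95), bipolar-like (0.38 to 0.62) and rod/bipolar precursor-like cells (0.14 to 0.49). It lay between -0.09 and 0.41 in the 10 run in amacrine-like cells. In microglia-like cells the value was that of 1 gene, Zfp292, and ran from 0.60 to 1.75 in 7 alternatives. The interval of its main value was -0.51 to 1.82. The value of 0.14 came with Mettl3-CKO cells limited to those with a Y-linked UMI, where Nxt1 turned to a log2 ratio of -0.0676 (main value 0.61) and 0 precursor-like genes passed 1.5-fold, beside 7.37% of all genes. At 2-fold the number of genes was 3 in Müller-like (beside 3.51% of all genes), 2 in RPC-like (2.73%), 1 in neurogenic-like (1.92%) and 1 in cone-like cells (2.71%). It was 0 in rod-like (0.924%), precursor-like (0.924%) and microglia-like cells (4.05%). At 1.5-fold with each cell weighted alike it was 3 in RPC-like (beside 14.7% of all genes), 3 in amacrine-like (18.7%) and 1 in rod-like cells (5.98%). Also at 1.5-fold it was 1 in rod-like cells with Mettl3-CKO cells limited to those with Xist (5.74%), 1 in amacrine-like cells named by their own markers (12.9%), 5 in bipolar-like cells under median-of-ratios scaling (10.6%), 5 in microglia-like cells with no UMI minimum (22.9%), and 5 in cone-like cells without the deepest 10% of cells (12.7%), an alternative chosen after seeing the data. Thinned to 1000 UMIs in 1 random draw, the ratio of mean summed levels was 1.45 in RPC-like, 1.35 in neurogenic-like and 0.951 in cone-like cells, and the variance quotient 0.962 in Mettl3-CKO neurogenic-like, 1.34 in Mettl3-CKO amacrine-like and 1.22 in control amacrine-like cells. The cause of these shifts was not tested. Of 664 ratios of single genes recomputed, 642 stayed within the interval of the main value. No replicate could be left out with 1 library per group. No paired analysis was possible because each group holds 1 library. Depth limits Sulf2 in rod-like and cone-like cells, Rap2b in cone-like cells and 7 of the 8 genes in microglia-like cells.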
